A study of Homo sapiens with 14 samples.

Results

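The peaks described here are those of RING1A, RING1B and BMI1 that were called in EED knockdown cells at positions where the same antibody had no peak in control cells. They were chosen by position alone: a knockdown peak was new when it shared no base with a control peak of the same antibody, and it is called retained otherwise. There were 3793 new peaks, namely 1601 of RING1A, 627 of RING1B and 1565 of BMI1, among 227479 peaks in the 14 lists of the series. The cells were of the human prostate cancer line DU145, and the 7 antibodies were mapped by chromatin immunoprecipitation and sequencing (ChIP-seq). The knockdown cells carried a stable knockdown of EED and all knockdown libraries bear one construct label, so that construct and the loss of EED cannot be told apart. The control cells carried a scramble construct. Both cell lines were selected with puromycin, and whether either was a single clone is not stated. Each antibody had 1 library in each cell line, so nothing below has a replicate check, no p-value was computed, and the 95% intervals in parentheses cover counting error only. The EED antibody itself listed 1372 peaks in knockdown cells and 13082 in control cells.

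PRC1 is the Polycomb complex that ubiquitylates histone H2A. RING1A and RING1B are its alternative catalytic subunits, and BMI1 is a RING-finger partner that holds them in the canonical form of the complex. PRC2, of which EED is a core subunit, methylates histone H3 at lysine 27 (H3K27me3), and canonical PRC1 can dock on that mark through its chromobox subunits. The ubiquitylated H2A mark (uH2A) was mapped with a rabbit and a mouse antibody. The libraries of RING1A, RING1B, BMI1 and H3K27me3 form one set by their culture description and those of EED and uH2A another, and the set and the antibodies in it cannot be told apart. Read totals are not given, and a signal in control cells below the threshold of the peak caller would not appear in these lists.

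New peaks were a minority of each knockdown list. They made up 39.3% of 4072 RING1A peaks (37.8 to 40.8), 36.1% of 1739 RING1B peaks (33.8 to 38.4) and 25.0% of 6257 BMI1 peaks (23.9 to 26.1). The control lists against which they were set held 56011 RING1A, 5155 RING1B and 20775 BMI1 peaks. RING1A, with by far the longest control list, thus had the highest share of new peaks, and RING1B, with the shortest, had a share close below it. By covered length new peaks were 30.0% of the RING1A, 25.7% of the RING1B and 16.7% of the BMI1 list, lower than by number because new peaks were shorter. The shares depended on the rule: with a control peak within 1000 bp counted as overlap they were 24.3% for RING1A, 20.0% for RING1B and 16.0% for BMI1. With only peaks that reached the median height of the control list kept in both lists of an antibody, they were 31.9%, 19.1% and 15.9%. In that setting a knockdown peak on a lower control peak alone counted as new.

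The line between new and retained was fine in places. 54 new RING1A, 15 RING1B and 60 BMI1 peaks lay at most 25 bp from a control peak, while 37, 11 and 35 retained peaks shared only 25 bp with one. The tallest new RING1A peak that touched a control peak without sharing a base lay on chromosome 2, 91818051 to 91818575 (hg19), with a height of 93.4. The tallest retained one with the least overlap, 25 bp, lay on chromosome 14, 32496151 to 32496375, with a height of 73.1. The same pair for RING1B was on chromosome 4, 49292751 to 49292925 (height 39.0) and on chromosome 21, 11128126 to 11128250 (height 33.3). For BMI1 it was on chromosome 15, 22467651 to 22467825 (height 74.0) and on chromosome 2, 91816976 to 91817100 (height 103). The named peaks were the tallest of their kind. The median height of the new peaks within 25 bp was 46.3 for RING1A, 25.3 for RING1B and 54.3 for BMI1. For the retained peaks that shared only 25 bp it was 44.0, 25.0 and 54.0. The medians of the whole knockdown lists were 50.2, 26.0 and 63.3.

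Most new peaks lay within 10000 bp of a control peak of the same antibody, at 87.4% for RING1A, 73.7% for RING1B and 74.5% for BMI1. The median gap, counted in bp between the nearest ends, was 1650 bp for RING1A (1500 to 1900), 1275 bp for RING1B (1075 to 1500) and 2125 bp for BMI1 (1875 to 2425). As a scale, neighbouring control peaks were a median of 5050 bp apart in the RING1A list, 2100 bp in the RING1B list and 6600 bp in the BMI1 list. That spacing is counted between successive peaks, whereas a new peak takes the nearer of the peaks on its left and right, so the values are given as a scale and not compared. Gaps of at most 100 bp were found for 6.56% of new RING1A, 7.50% of new RING1B and 8.31% of new BMI1 peaks. Gaps of at most 1000 bp were found for 38.2%, 44.7% and 35.9% of them, in the same order. The far end of the range set RING1B apart from RING1A. At 10000 bp or more from any control peak of their antibody lay 202 new RING1A peaks, 12.6% (11.0 to 14.3), 165 RING1B peaks, 26.3% (22.9 to 29.9), and 399 BMI1 peaks, 25.5% (23.4 to 27.7). The control lists differ in length, and the part of that in the gaps was not tested. With peaks of one list within 1000 bp of each other merged first, the median gap of new peaks was 2737.5 bp for RING1A, 6725 bp for RING1B and 4375 bp for BMI1.

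**Figure D1:**
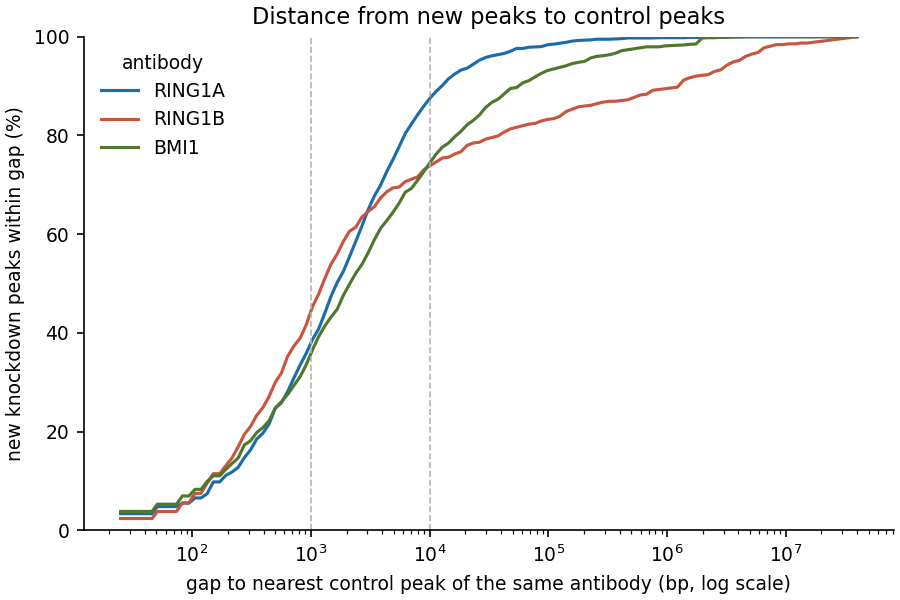
Cumulative share of new peaks, in percent, against the gap in bp to the nearest control peak of the same antibody on a log axis, with 1 line per antibody and dashed lines at 1000 and 10000 bp. The RING1A line reaches 87.4% at 10000 bp, while the RING1B and BMI1 lines are at 73.7% and 74.5% and RING1B has the longest tail.

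The control peaks beside new peaks were kept more often than the average control peak. Of the 555 RING1A control peaks nearest to a new peak within 1000 bp, 45.9% (41.7 to 50.2) overlapped a knockdown RING1A peak themselves, against 4.07% of all RING1A control peaks. For RING1B the shares were 66.4% (59.8 to 72.5) of 226 and 20.7% of all, and for BMI1 54.4% (50.1 to 58.7) of 531 and 21.1% of all. So a new peak close to a control peak could stand beside one that was still listed in knockdown cells or beside one that was not, and both were common. The control peaks beside new peaks were chosen for lying within 1000 bp of a knockdown peak. Their median height was 1.31 times that of the whole control list for RING1A, 1.10 times for RING1B and 1.12 times for BMI1. The part of position and height in the shares kept was not tested, and other control peaks of the same neighbourhoods were not compared.

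New peaks were somewhat lower and shorter than retained peaks of the same library. A longer peak can more easily share a base with a control peak, so the rule itself bears on length. Its part in the lengths and heights was not tested. The height is the peak signal as listed by the authors' caller, for which no normalisation between libraries is stated. Ratios and height classes are therefore taken within a library, and only the setting on median control height sets libraries against each other. Where heights of the same place are given for both cell lines below, they are as listed and do not measure a gain or loss. The median height of new RING1A peaks was 48.0 (quartiles 41.0 and 58.1), against 52.3 (44.0 and 68.0) for retained peaks, a ratio of 0.917. The median height of new RING1B peaks was 22.5 (quartiles 0 and 31.6), against 27.5 (21.0 and 49.0) for retained peaks, a ratio of 0.818. The median height of new BMI1 peaks was 55.6 (quartiles 48.0 and 66.0), against 67.0 (55.0 and 90.0) for retained peaks, a ratio of 0.830. The quartiles overlapped widely for each of the 3 antibodies, and the difference was clearest in the upper range. Heights over 5 times the library median were listed for 14 new and 77 retained RING1A peaks, 18 new and 139 retained RING1B peaks, and 4 new and 151 retained BMI1 peaks. New peaks had a median length of 150 bp for RING1A and 125 bp for RING1B and for BMI1, against 200, 175 and 175 bp for retained RING1A, RING1B and BMI1 peaks.

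Seen from the whole list, the share of new peaks was lower among taller peaks. Among BMI1 peaks with a height above 0 it was 41.9% (39.3 to 44.6) in the lowest of 4 equal height classes and 10.1% (8.53 to 11.8) in the tallest. For RING1B these shares were 52.2% (46.7 to 57.7) and 19.9% (15.8 to 24.5). For RING1A they were 47.0% (43.7 to 50.3) and 28.8% (25.8 to 31.8), the smallest contrast of the 3, so that tall RING1A peaks were also often new. The lists of these antibodies also hold peaks with a height of 0. They were 14.1% of new and 9.31% of retained RING1A peaks, 27.4% and 19.8% for RING1B, and 16.6% and 12.0% for BMI1.

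**Figure D2:**
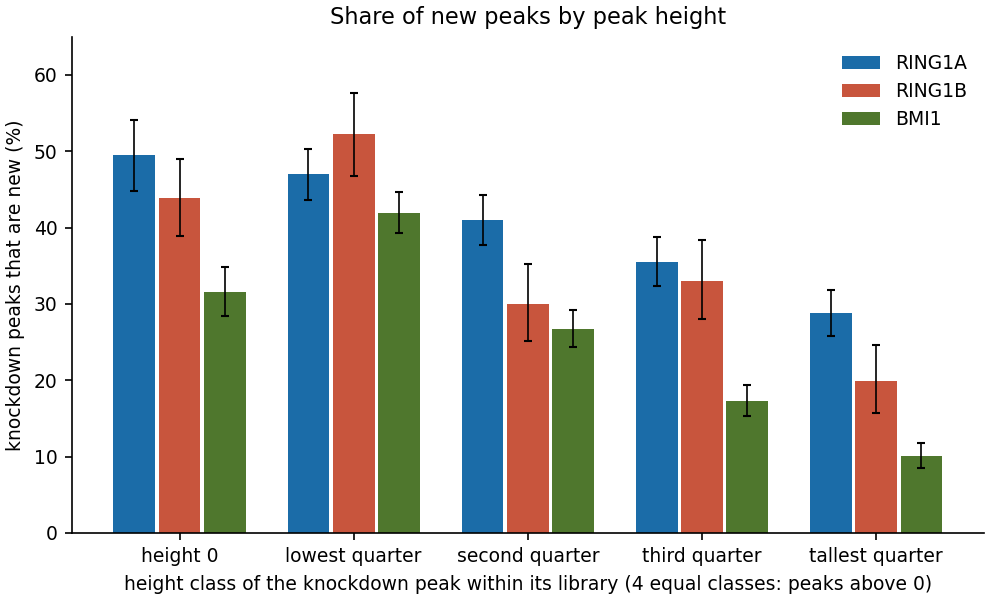
Share of knockdown peaks that are new, in percent, by the height class of the peak within its library, for peaks of height 0 and for 4 equal classes of the others, with 1 bar per antibody and 95% Clopper-Pearson intervals. BMI1 goes down to 10.1% in the tallest class, where RING1A is at 28.8%.

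The tallest new RING1A peak was also the tallest peak of the whole RING1A knockdown list. It lay on chromosome 18, 107101 to 109025 (hg19), spanned 1925 bp and had a height of 6216, with the nearest control RING1A peak 1275 bp away. In knockdown cells the same place had heights of 9660 for BMI1, 2034 for RING1B and 7884 for H3K27me3. In control cells it had heights of 1766 for BMI1, 3411 for RING1B and 1756 for H3K27me3, without RING1A. So the place was listed for the other proteins in both cell lines and for RING1A in knockdown cells only. EED (height 381 in knockdown and 186 in control cells) and the uH2A rabbit antibody (123 and 127) had peaks there too, and the uH2A mouse antibody had none. The next tallest new RING1A peaks, on chromosome 18, 109326 to 110050 (height 818) and chromosome 10, 135500776 to 135501250 (height 624), likewise had RING1B, BMI1 and H3K27me3 peaks in both cell lines. The 3 tallest of those at least 10000 bp from a control RING1A peak lay on chromosome 1, 566076 to 566675, chromosome 4, 190154876 to 190155275 and chromosome 11, 964876 to 965200, with heights of 315, 284 and 198. All 3 of these carried RING1B and H3K27me3 peaks in both cell lines. Of the 14 new RING1A peaks over 5 times the library median, 14 lay on a control peak of RING1B or BMI1 and 10 on both. Over all RING1A knockdown peaks these shares were 80.2% and 60.7%, and retained peaks of that height were not counted in this way.

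The 3 tallest new RING1B peaks lay on chromosome 1, 121484451 to 121484625 (height 2812, gap 500 bp), on chromosome 10, 42392626 to 42392700 (height 1197, gap 200 bp) and on chromosome 10, 42387351 to 42387425 (height 962, gap 75 bp). None of these 3 overlapped a knockdown RING1A or BMI1 peak. Of all 18 new RING1B peaks over 5 times the library median, 7 lay on another knockdown PRC1 protein, 8 on a control peak of one, 15 on knockdown and 11 on control H3K27me3. Over all RING1B knockdown peaks these shares were 75.7%, 63.8%, 79.9% and 51.9%, in the same order. Retained peaks of that height were not counted in this way. The first of the 3 tallest lay on knockdown peaks of EED (height 1413) and uH2A rabbit (4459), and of these only uH2A rabbit (2208) was also listed in control cells. The second lay on a knockdown H3K27me3 peak (height 3187) and a control BMI1 peak (height 3433), and the third on no other peak in either cell line. Among new RING1B peaks at least 10000 bp from a control RING1B peak, the tallest were on chromosome 6, 58776301 to 58776700 (height 779), chromosome 6, 58779326 to 58779550 (height 399) and chromosome 18, 18517001 to 18517175 (height 294). The first and second were more than 1000000 bp from the nearest control RING1B peak, and both had knockdown peaks of EED, H3K27me3 and uH2A rabbit, while in control cells H3K27me3 alone was listed there (heights 447 and 99.3).

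The 3 tallest new BMI1 peaks lay on chromosome 4, 49512101 to 49512375 (height 525), chromosome 2, 133019976 to 133020250 (height 507) and chromosome 1, 121357826 to 121358125 (height 475), and the first of them ranked 102 by height in the knockdown list. All 3 overlapped RING1B and H3K27me3 peaks in both cell lines. The tallest of those far from a control BMI1 peak lay on chromosome 6, 58779426 to 58779525 (height 225), inside the second of the far RING1B peaks just named, on chromosome 12, 2365001 to 2365200 (height 207) and on chromosome 2, 90393051 to 90393350 (height 182). The one on chromosome 12 had knockdown peaks of RING1A (height 124), RING1B (41.6) and H3K27me3 (120) and no peak of any of the 7 antibodies in control cells.

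The 3 antibodies differed in what else was listed at their new peaks. More than any other antibody, RING1A was new where another PRC1 protein was listed in control cells: 56.4% (53.9 to 58.8) of its new peaks, 903, lay on a control peak of RING1B or BMI1. For RING1B 19.6% (16.6 to 22.9) of new peaks, 123, lay on a control peak of another PRC1 protein, and for BMI1 20.8% (18.8 to 22.9), 325. Retained peaks lay on one at 95.5% for RING1A, 88.8% for RING1B and 87.6% for BMI1. Over all knockdown peaks the shares were 80.2%, 63.8% and 70.9%, so new peaks stood below the list as a whole for each antibody. The rule puts retained peaks on a control peak of their own antibody, and the part of that in these shares was not tested. A second group met another PRC1 protein in knockdown cells only: 307 new RING1A peaks, 19.2% (17.3 to 21.2), 199 RING1B peaks, 31.7% (28.1 to 35.5), and 383 BMI1 peaks, 24.5% (22.4 to 26.7). Among retained peaks this group was small, with 2 RING1A peaks, 0.0809%, 81 RING1B peaks, 7.28%, and 145 BMI1 peaks, 3.09%. Each peak was counted in the first group it met. Most retained peaks were in the first group, which left few for the later ones. A further 66 new RING1A, 137 RING1B and 454 BMI1 peaks met no other PRC1 protein but EED, H3K27me3 or uH2A in either cell line. These were 4.12%, 21.9% and 29.0% of new peaks, against 1.82%, 3.87% and 5.35% of retained peaks. The remaining new peaks stood alone, with no peak of the other 6 antibodies in either cell line: 325 of RING1A, 20.3% (18.4 to 22.4), 168 of RING1B, 26.8% (23.4 to 30.4), and 403 of BMI1, 25.8% (23.6 to 28.0). Over all knockdown peaks, 9.53% of RING1A, 9.72% of RING1B and 9.41% of BMI1 peaks stood alone. Lone new peaks were short, with a median of 100 bp for each antibody. A short peak can more easily miss other peaks, and the part of that was not tested. Lone RING1B peaks were also remote, with a median gap of 95900 bp to a control RING1B peak.

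**Figure D3:**
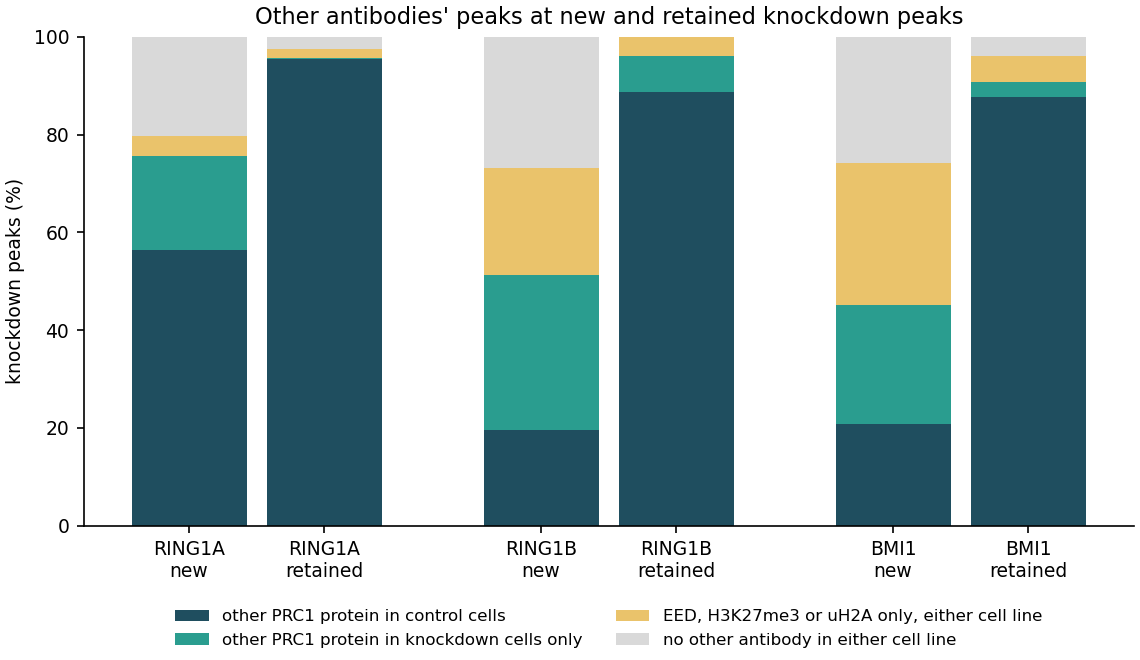
Percent of new and retained knockdown peaks of each antibody by what the other antibodies show at the same place, in 4 classes that add up to all peaks. The darkest class, a control peak of another PRC1 protein, holds 56.4% of new RING1A peaks but 19.6% and 20.8% of new RING1B and BMI1 peaks.

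In detail, 40.8% of new RING1A peaks lay on a control RING1B peak and 48.8% on a control BMI1 peak, against 79.5% and 94.5% of retained and 64.3% and 76.5% of all RING1A knockdown peaks. Of the 653 on a control RING1B peak, 235 also overlapped a knockdown RING1B peak and 418 did not. At these 418 places RING1B was listed in control cells only and RING1A in knockdown cells only. Absence of knockdown RING1B was also common at retained RING1A peaks: of 1965 on a control RING1B peak, 567 overlapped a knockdown one and 1398 did not. Of the 782 new RING1A peaks on a control BMI1 peak, 580 overlapped a knockdown BMI1 peak and 202 did not. For the 2335 retained ones these counts were 1808 and 527. The BMI1 control peaks under new RING1A peaks had a median height of 82.0, against 122 for those under retained RING1A peaks and 67.0 for all BMI1 control peaks. The BMI1 peaks under new RING1A peaks were thus taller than the median of their list and lower than those under retained ones.

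New BMI1 peaks seldom lay on control peaks of the catalytic subunits: 10.1% on RING1A and 11.8% on RING1B, against 74.2% and 64.6% of retained and 58.1% and 51.4% of all BMI1 knockdown peaks. Where they did meet RING1A in knockdown cells, RING1A was almost always listed in knockdown cells only: of 389 new BMI1 peaks on a knockdown RING1A peak, 384 had no control RING1A peak, 98.7% (97.0 to 99.6). Among retained BMI1 peaks on a knockdown RING1A peak that share was 24.5%, 578 of 2362. New RING1B peaks on a knockdown RING1A peak showed the same, with 130 of 142, 91.5% (85.7 to 95.6), against 29.7% of retained ones, 258 of 870. On BMI1 it was 185 of 251, 73.7% (67.8 to 79.0), against 8.33%, 84 of 1008. The rule bars a control peak of their own antibody at new peaks, and the part of that in these shares was not tested. New RING1B peaks lay on a control RING1A peak at 7.50% and on a control BMI1 peak at 18.0%, against 66.3% and 87.2% of retained and 45.1% and 62.3% of all RING1B knockdown peaks.

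Sharing among the 3 PRC1 proteins within knockdown cells depended on the antibody. New RING1A peaks met BMI1 often, at 59.8% (57.3 to 62.2), against 73.4% of retained and 68.0% of all RING1A knockdown peaks. They met RING1B at 21.8% (19.8 to 23.9), against 23.3% of retained and 22.7% of all, and the interval of the difference, -1.51 percentage points (-4.11 to 1.13), includes 0. It did not include 0 with height-0 peaks left out, at -3.69 points (-6.36 to -0.945), on autosomes only, at -3.45 points (-6.04 to -0.787), or with peaks within 1000 bp merged, at -5.54 points (-8.68 to -2.31), while 4 other settings gave values above 0. New RING1B peaks were far less shared than retained ones. They met BMI1 at 40.0% (36.2 to 44.0) and RING1A at 22.6% (19.4 to 26.1), against 90.6% and 78.2% of retained and 72.4% and 58.2% of all RING1B knockdown peaks. The differences from retained peaks were -50.6 percentage points (-54.7 to -46.3) and -55.6 percentage points (-59.5 to -51.3). New BMI1 peaks met RING1A at 24.9% (22.7 to 27.1), against 50.3% of retained and 44.0% of all BMI1 knockdown peaks. They met RING1B at 16.7% (14.9 to 18.7), against 20.4% and 19.5%. That last difference, -3.63 percentage points (-5.76 to -1.40), was -1.14 percentage points (-3.17 to 1.01) when only the midpoint of the BMI1 peak had to lie in the RING1B peak, an interval that includes 0, as it also did with 50% cover by the partner and outside high-signal windows. Retained peaks were also longer, as given above. Counted by midpoints, which leaves out the length of the PRC1 peak, the difference for RING1A with RING1B was 0.715 points (-1.67 to 3.16), and the other PRC1 differences kept their sign. With a partner peak within 1000 bp counted as shared, 69.5% of new RING1B peaks met another knockdown PRC1 protein, against 43.5% by shared bases.

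Merging new peaks that shared a base gave 3203 regions. In 2705 of them 1 antibody was new, in 415 a pair and in 83 all 3. The pair RING1A and BMI1 was new together in 289 regions, RING1B and BMI1 in 85 and RING1A and RING1B in 41. Expressed over each list, 23.3% of new RING1A peaks lay on a new BMI1 peak and 23.9% of new BMI1 peaks on a new RING1A peak. New RING1B peaks lay on a new BMI1 peak at 27.1% and on a new RING1A peak at 19.5%, while 10.9% of new BMI1 and 7.56% of new RING1A peaks lay on a new RING1B peak. For scale, new peaks made up 39.3% of the RING1A, 36.1% of the RING1B and 25.0% of the BMI1 knockdown list. Those are shares of all listed peaks, whereas the overlap shares also depend on how often the partner was met at all. New BMI1 peaks hardly ever lay on a retained RING1A peak, at 0.958%, whereas 36.9% of new RING1A peaks lay on a retained BMI1 peak. As numbers, 591 new RING1A peaks lay on a BMI1 peak retained there, and 15 new BMI1 peaks on a retained RING1A peak. In 1954 regions, 61.0% (59.3 to 62.7), no PRC1 protein had a control peak. Of these, 1553 had 1 PRC1 protein in knockdown cells, 317 had 2 and 84 had all 3. The rule bars a control peak of the same antibody at each new peak, so the 61.0% is in part set by it. Neither count is given for retained peaks.

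Of the 83 regions where all 3 were new, the 5 with the highest summed height ranks are described here. The first lay on chromosome 9, 68417201 to 68417400 (hg19), the second on chromosome 4, 49291226 to 49291525 and the third on chromosome 5, 17526551 to 17526900. The last pair lay on chromosome 1, 148010726 to 148011050 and on chromosome 9, 68426451 to 68426875. In the first the knockdown heights were 109 for RING1A, 51.5 for RING1B, 249 for BMI1, 63.9 for EED and 178 for H3K27me3, and in control cells none of the 7 antibodies had a peak. The second, on chromosome 4, had 135 for RING1A, 49.9 for RING1B, 168 for BMI1 and 164 for H3K27me3, and likewise no control peak of any antibody. All 5 had a knockdown H3K27me3 peak. Those on chromosomes 5 and 1 had a control H3K27me3 peak (heights 39.0 and 32.0), and the second one on chromosome 9 a control H3K27me3 (67.3) and a control RING1B peak (111), which overlaps the merged region but no new RING1B peak. H3K27me3 was present in knockdown cells in 80 of the 83 regions with all 3 new, 96.4%, and in control cells in 40. Where BMI1 alone was new it was present in 282 of 1104 regions, 25.5%, where RING1A alone was new in 40.6% of 1186, and where RING1B alone was new in 49.6% of 415. The median length was 250 bp in regions with all 3 new and 100 to 125 bp in those with 1, and the part of length in these shares was not tested. For scale, 52.6% of all RING1A, 79.9% of all RING1B and 46.8% of all BMI1 knockdown peaks lay on knockdown H3K27me3. Knockdown places with all 3 proteins, new or retained, were not counted, so the 96.4% is not shown to be particular to new peaks.

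H3K27me3 was the mark most often found at new peaks of each PRC1 protein in knockdown cells. New RING1B peaks lay on a knockdown H3K27me3 peak at 62.7% (58.8 to 66.5), against 89.6% of retained and 79.9% of all RING1B knockdown peaks. New RING1A peaks did so at 49.3% (46.8 to 51.8), against 54.7% and 52.6%, and new BMI1 peaks at 41.2% (38.7 to 43.6), against 48.7% and 46.8%. New peaks were thus below retained peaks throughout, with differences of -26.9 points for RING1B, -5.43 for RING1A and -7.57 for BMI1. By midpoints the RING1A difference was -1.84 percentage points (-4.97 to 1.29), an interval that includes 0. It was -1.14 points (-4.71 to 2.43) with a control peak within 1000 bp counted as overlap and -4.34 points (-9.18 to 0.218) among peaks reaching the median control height. With 50% of the peak covered by the partner it was -2.19 points (-5.31 to 0.949) for RING1A and -2.63 points (-5.40 to 0.190) for BMI1, and all of these intervals include 0. Many of these H3K27me3 peaks were themselves new. Of the new PRC1 peaks on knockdown H3K27me3, 61.3% for RING1A, 54.5% for RING1B and 68.2% for BMI1 met an H3K27me3 peak without a control counterpart, against 59.0%, 28.0% and 59.1% of retained PRC1 peaks on it. Such peaks are 67.6% of the whole H3K27me3 knockdown list, a value inside the interval for new BMI1 peaks (64.4 to 71.8) and above those for new RING1A (57.8 to 64.8) and RING1B peaks (49.4 to 59.5). On control H3K27me3 peaks lay 22.8% of new RING1A, 27.8% of new RING1B and 15.1% of new BMI1 peaks, against 29.6%, 65.6% and 25.2% of retained and 26.9%, 51.9% and 22.6% of all knockdown peaks.

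EED was rare at new peaks. Knockdown EED peaks overlapped 6.50% (5.34 to 7.82) of new RING1A peaks, 2.71% (1.59 to 4.31) of new RING1B peaks and 4.66% (3.67 to 5.83) of new BMI1 peaks. Retained peaks had 8.98%, 10.6% and 10.2%, and all knockdown peaks 8.01%, 7.76% and 8.82%.  For RING1A the difference by midpoints was -1.36 percentage points (-2.75 to 0.0864), an interval that includes 0, as it did with 50% cover by the partner and among peaks reaching the median control height. The PRC1 product uH2A, as seen by the mouse antibody, was nearly absent at new peaks, with 6 of 1601 new RING1A peaks, 0.375%, 3 of 627 RING1B peaks, 0.478%, and 12 of 1565 BMI1 peaks, 0.767%. Retained peaks carried it at 21.6% (20.0 to 23.2) for RING1A, 9.44% (7.79 to 11.3) for RING1B and 13.6% (12.6 to 14.6) for BMI1, and all knockdown peaks at 13.2%, 6.21% and 10.4%. This was the mark with the sharpest contrast in proportion, and by midpoints the difference for RING1A was still -16.9 percentage points (-18.5 to -15.5). With the rabbit antibody the contrast was smaller for RING1A (3.31% of new, 7.20% of retained and 5.67% of all knockdown peaks) and for RING1B (2.71%, 7.91% and 6.04%). For BMI1 it could not be seen: 13.8% (12.1 to 15.6) of new peaks, 14.1% (13.1 to 15.1) of retained peaks and 14.0% of all, with a difference of -0.307 percentage points (-2.22 to 1.73). H3K27me3 comes from the library set of the PRC1 proteins, EED and uH2A from the other, and the order of the marks cannot be told apart from that split.

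**Figure D4:**
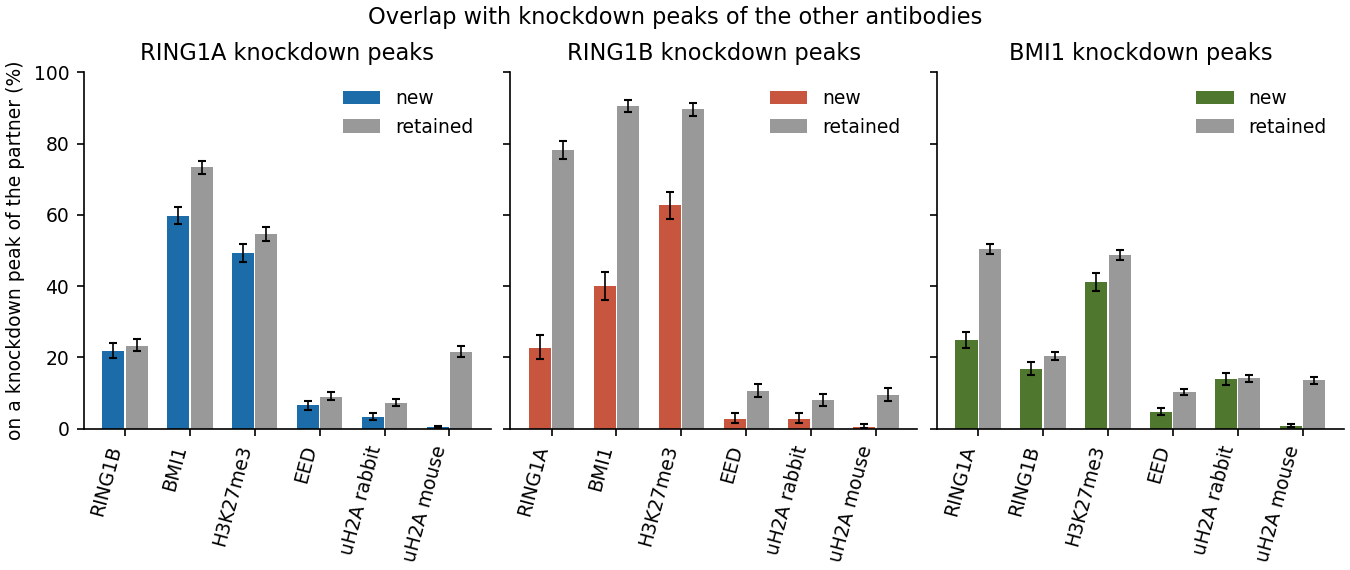
Percent of new (coloured) and retained (grey) knockdown peaks of RING1A, RING1B and BMI1 that share at least 1 bp with a knockdown peak of each other antibody, with 95% Clopper-Pearson intervals. New RING1B peaks stand far below retained ones on RING1A (22.6% and 78.2%), and new peaks of each antibody are at most 0.767% on uH2A mouse.

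How far a new peak lay from a control peak of its antibody went with its company, and not in the same way for the 3 proteins. New RING1B peaks within 1000 bp of a control peak lay on knockdown H3K27me3 at 77.9% (72.5 to 82.6) and on another knockdown PRC1 protein at 52.1% (46.1 to 58.1). Those at 10000 bp or more had 28.5% (21.7 to 36.0) and 20.6% (14.7 to 27.6). Of these 165 remote RING1B peaks, 103 or 62.4% (54.6 to 69.8), stood alone in both cell lines. Their median height was 22.0, close to the 22.8 of near ones, and their median length was 100 bp against 150 bp. For new RING1A peaks the shares on knockdown PRC1 peaks were close at each distance, and those on control PRC1 peaks were lower farther out. The share on knockdown H3K27me3 was somewhat lower within 1000 bp than farther out. In knockdown cells they lay on another knockdown PRC1 protein at 59.2% within 1000 bp, 62.2% between 1000 and 10000 bp and 60.9% (53.8 to 67.7) at 10000 bp or more, and on knockdown H3K27me3 at 45.3%, 51.9% and 51.0% (43.9 to 58.1). On a control peak of another PRC1 protein lay 64.0% (60.0 to 67.8), 54.4% (50.9 to 58.0) and 41.1% (34.2 to 48.2) of them, and on a knockdown EED peak 7.53%, 6.85% and 1.98%.

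Remote new BMI1 peaks were of several kinds. Of the 399 at 10000 bp or more, 119, 29.8% (25.4 to 34.6), lay on knockdown H3K27me3, and 110, 27.6%, stood alone. A further kind was more common far out than near: 104, 26.1% (21.8 to 30.7), lay on a knockdown uH2A rabbit peak, against 11.7% within 1000 bp and 7.62% between. Of those 104, 89 lay on a control uH2A rabbit peak and 61 on a control EED peak, while 15 lay on a knockdown EED peak and 14 on knockdown H3K27me3. Most of these places thus had uH2A in both cell lines, and they were spread over 22 chromosomes. That was not particular to remote peaks. Over all distances, 177 of 216 new and 609 of 662 retained BMI1 peaks on knockdown uH2A rabbit also lay on a control one. The heights of the 104 remote BMI1 peaks ran from 0 to 160 with a median of 58.0. Remote RING1A and RING1B peaks on knockdown uH2A rabbit numbered 5 and 6. Over all distances, 15.1% of new BMI1 peaks lay on a control uH2A rabbit peak and 11.9% on a control EED peak, against 21.0% and 22.9% of retained and 19.6% and 20.1% of all BMI1 knockdown peaks. The uH2A rabbit control peaks under new BMI1 peaks had a median height of 68.0, against 51.4 under retained ones and 36.3 in that whole list.

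New peaks were not spread evenly over the genome. The 20 bins of 1 Mb richest in them held 55.5% of new RING1A, 58.9% of new RING1B and 38.2% of new BMI1 peaks. In their own richest 20 bins, retained peaks had 46.0%, 62.0% and 39.9%, and control peaks 12.3%, 42.3% and 19.7%. Chromosome Y stood out. It held 138 new RING1B peaks, 22.0% of them, against 11.7% of retained and 5.04% of control RING1B peaks. For RING1A it held 9.12% of new, 3.56% of retained and 0.495% of control peaks, and for BMI1 8.05%, 5.41% and 1.96%. Chromosome 1 held 22.2% of new RING1A, 17.1% of new RING1B and 19.2% of new BMI1 peaks. Its share was 17.6%, 15.6% and 14.5% of retained peaks of RING1A, RING1B and BMI1, and 7.57%, 15.8% and 10.4% of their control peaks, so that of new RING1B peaks was close to both. Chromosome 14 held 16.3% of new RING1A, 8.18% of new BMI1 and 2.23% of new RING1B peaks. Retained peaks had the same order, with 16.9% for RING1A, 12.8% for BMI1 and 1.17% for RING1B, and control peaks had 11.9%, 16.0% and 15.4%. On chromosome X, 45.1% of 122 BMI1 knockdown peaks were new (36.1 to 54.3), above the 25.0% of the whole list. For RING1A on X it was 13.0% of 54 (5.37 to 24.9) and for RING1B 24.7% of 93 (16.4 to 34.8), both below the 39.3% and 36.1% of their lists. Few new peaks stood by themselves: 5.87% of new RING1A, 17.4% of new RING1B and 14.6% of new BMI1 peaks were the only new peak of their antibody in a 1-Mb bin.

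**Figure D5:**
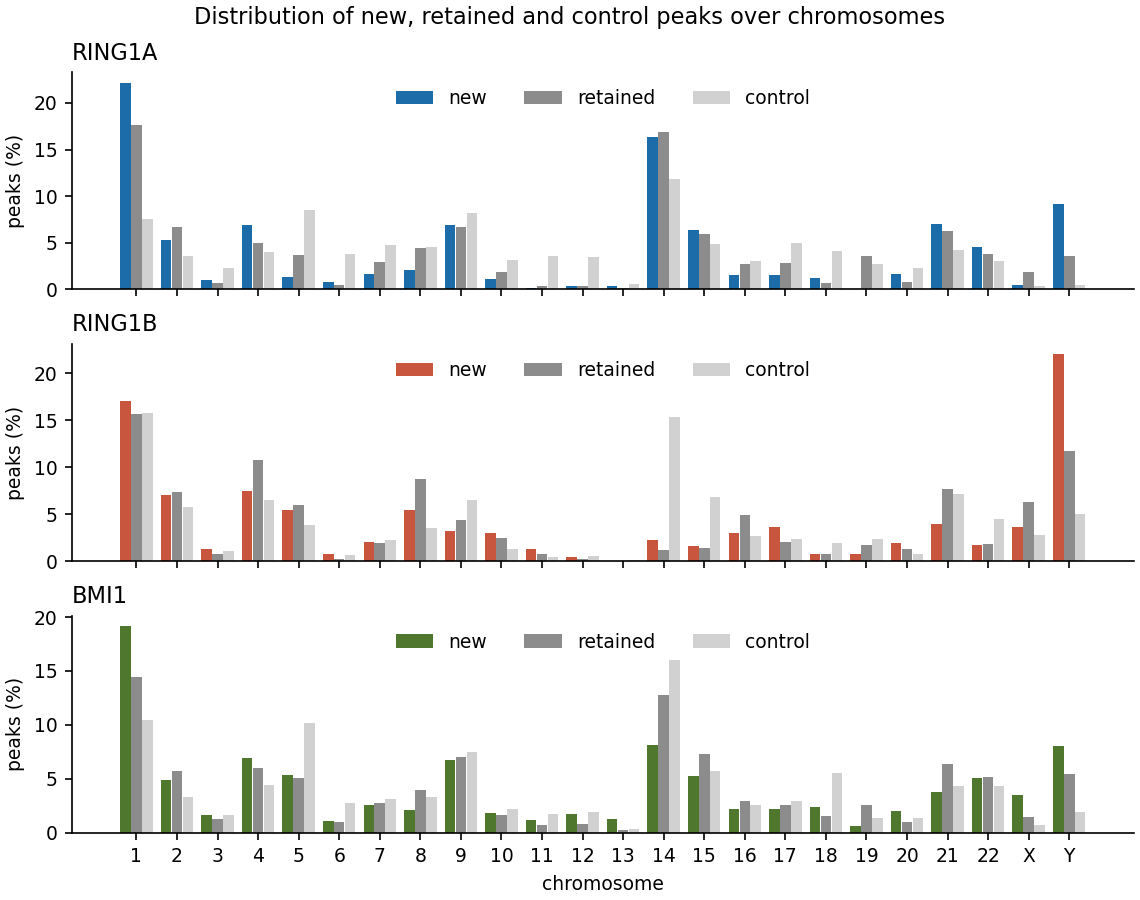
Percent of new (coloured), retained (dark grey) and control (light grey) peaks of each antibody on each chromosome. New RING1B peaks are most numerous on chromosome Y (22.0%), and new RING1A and BMI1 peaks on chromosome 1 (22.2% and 19.2%).

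The 100-kb window with the most new peaks, on chromosome Y from 58800001 to 58900000 (hg19), held 63 new RING1B, 19 new BMI1 and 15 new RING1A peaks beside 47, 81 and 8 retained ones. H3K27me3 had 112 knockdown and 109 control peaks in it, and EED and both uH2A antibodies had none in either cell line. The next window, from 58900001 to 59000000, held 60 new peaks, and one on chromosome Y from 13400001 to 13500000 held 58. The other 2 of the 5 richest windows were on chromosome 1, from 142800001 to 142900000 and from 145300001 to 145400000, with 48 new peaks each. In the last of these H3K27me3 had 51 knockdown and 4 control peaks, RING1A 26 knockdown and 13 control, BMI1 35 and 21, and RING1B 14 and 20. In these windows the EED and uH2A lists, of the other library set, had at most 14 peaks each in any of the 5. Input and IgG libraries are not analysed here, so regions that give signal with any antibody cannot be told apart from bound ones.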

How the data were processed

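DU145 cells were profiled by ChIP-seq with 7 antibodies in EED knockdown and scramble control cells, 1 library each and 14 in all. The authors deposited 1 peak list per library. Per the submitters' processing notes and the labels' protocols, reads of 40 nt were aligned to hg19 with Bowtie. Peaks were called per library with HPeak, going by the names of the deposited lists. The peak height in the deposited lists is a signal value of the authors' caller, with no normalisation between libraries stated, and its meaning was read from the values. Chromosomes numbered 23 and 24 were read as X and Y. No read totals, input library or hg19 annotation were used, so regions carry no gene names.

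A knockdown peak was new when it shared no base with a control peak of the same antibody, and partner overlap needed at least 1 shared bp. Shares have exact Clopper-Pearson 95% intervals and differences Newcombe intervals, which cover counting error only and treat peaks as independent, although neighbours are not. Scripts used Python 3.11.15, numpy 2.4.6, pandas 2.3.3, scipy 1.17.1 and matplotlib 3.10.9, and overlap counts were tested on simulated lists. The members and lists were chosen with earlier results of these data known. Regions named were, per antibody, the 3 tallest new peaks, the 3 tallest at least 10000 bp from a control peak and those nearest the rule, plus the 5 top regions new for all 3 and the 5 windows of 100 kb richest in new peaks. Alternatives varied the overlap rule, height, merging, chromosomes and partner rule. The setting on median control height left out lower peaks from both the knockdown and the control list of the PRC1 antibody described. The midpoint rule and the removal of high-signal windows, 100-kb windows with their neighbours where at least 2 other antibodies had a peak over 10 times their median height, were chosen after seeing the data.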

Additional observations from a re-analysis of the deposited data

How the results depend on the processing

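Of 21 summary values recomputed under up to 10 settings, 68 of 156 alternative values stayed within the counting interval of the reported one, and 88 moved beyond it and are given here. All 45 differences between new and retained peaks in sharing with another antibody were below 0, and the intervals of 43 did not include 0. The 45 are not separate results: totals are counted beside their parts, and knockdown PRC1 pairs from both sides. The rule puts retained peaks on a control peak of their own antibody. The part of that in the differences, above all those on control peaks, was not tested. Of the 405 alternatives to the 45 differences, 396 were below 0 and 9 above it. 381 kept both the sign and whether the interval included 0, 12 kept the sign with an interval that now included 0, and 3, all of RING1A on knockdown RING1B, with one that no longer did. The 9 were new minus retained BMI1 peaks on knockdown RING1B, at 1.69 points among peaks reaching the median height of the control list, and 4 values each of the 2 differences whose reported interval includes 0. With a control peak within 1000 bp counted as overlap, 50% cover by the partner, the midpoint rule and high-signal windows left out, RING1A on knockdown RING1B was at 0.815, 1.15, 0.715 and 1.37 points. BMI1 on knockdown uH2A rabbit was at 1.10, 1.36, 0.802 and 0.369 points. All of these 9 intervals include 0. The causes were not tested. No paired analysis was possible because each antibody had 1 library in each cell line. Leaving out a library was not possible for the same reason. Peak heights are not known to share a scale between libraries, which bears on the setting that uses control heights. Read depth is unknown, which leaves unstated how much signal a listed or missing peak stands for.

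The share of new peaks, in percent of the knockdown list, changed as follows. With a control peak within 1000 bp counted as overlap it was 24.3% for RING1A, 20.0% for RING1B and 16.0% for BMI1. With peaks covered to less than 50% counted as new it was 43.3% for RING1A, 41.6% for RING1B and 27.9% for BMI1. With peaks outside high-signal windows it was 40.7% for RING1B. With peaks reaching the median control height it was 31.9% for RING1A, 19.1% for RING1B and 15.9% for BMI1. The median RING1B height was 61.0 in the control and 26.0 in the knockdown list. That setting therefore left out most RING1B knockdown peaks, and its RING1B values rest on few. With height-0 peaks left out the share of new peaks was 33.8% for RING1B. With peaks within 1000 bp merged it was 26.1% for BMI1. The median gap to a control peak, in bp, also moved. It was 1812.5 bp for RING1B with autosomes only. It was 3712.5 bp for RING1A, 8400 bp for RING1B and 6125 bp for BMI1 with a control peak within 1000 bp counted as overlap. It was 1587.5 bp for RING1B with peaks outside high-signal windows. It was 650 bp for RING1B and 1762.5 bp for BMI1 with peaks reaching the median control height. It was 1750 bp for RING1B with height-0 peaks left out. It was 2737.5 bp for RING1A, 6725 bp for RING1B and 4375 bp for BMI1 with peaks within 1000 bp merged. Median heights of new over retained peaks gave other ratios in places. With peaks outside high-signal windows it was 0.886 for RING1B and 0.846 for BMI1. With peaks reaching the median control height it was 0.949 for RING1A, 0.542 for RING1B and 0.878 for BMI1. With height-0 peaks left out it was 0.797 for RING1B. Length ratios of new over retained peaks moved too. It was 0.857 for RING1A and 0.571 for RING1B with a control peak within 1000 bp counted as overlap. It was 0.833 for RING1B with peaks outside high-signal windows. It was 0.818 for RING1A, 0.750 for RING1B and 0.70 for BMI1 with peaks reaching the median control height. It was 0.50 for RING1B with peaks within 1000 bp merged. The share of new peaks on another knockdown PRC1 protein moved with the setting. With at least 50% of the peak covered by the partner it was 57.4% for RING1A, 39.4% for RING1B and 31.2% for BMI1. With autosomes only it was 29.9% for BMI1. With a control peak within 1000 bp counted as overlap it was 36.6% for RING1B and 31.0% for BMI1. With the midpoint in the partner it was 57.6% for RING1A. With peaks outside high-signal windows it was 31.1% for BMI1. With a partner within 1000 bp counted as shared it was 73.3% for RING1A, 69.5% for RING1B and 45.4% for BMI1. With peaks reaching the median control height it was 88.4% for RING1A, 56.4% (42.3 to 69.7) for RING1B and 58.7% for BMI1. With height-0 peaks left out it was 30.4% for BMI1. With peaks within 1000 bp merged it was 56.1% for RING1A, 38.8% for RING1B and 26.7% for BMI1. Likewise for the share of new peaks on a knockdown EED, H3K27me3 or uH2A peak. It was 46.0% for RING1A and 51.3% for BMI1 with at least 50% of the peak covered by the partner. It was 56.9% for RING1B with autosomes only. It was 51.0% for RING1B with a control peak within 1000 bp counted as overlap. It was 46.9% for RING1A with the midpoint in the partner. It was 58.9% for RING1B with peaks outside high-signal windows. It was 68.5% for RING1A, 75.8% for RING1B and 65.6% for BMI1 with a partner within 1000 bp counted as shared. It was 80.2% for RING1A, 92.7% (82.4 to 98.0) for RING1B and 76.3% for BMI1 with peaks reaching the median control height. It was 57.1% for RING1B with height-0 peaks left out. It was 48.1% for RING1A, 46.6% for RING1B and 49.8% for BMI1 with peaks within 1000 bp merged. Finally, the share on a control peak of any other antibody varied. With at least 50% of the peak covered by the partner it was 58.7% for RING1A, 32.9% for RING1B and 40.6% for BMI1. With autosomes only it was 33.7% for RING1B. With a control peak within 1000 bp counted as overlap it was 60.1% for RING1A and 26.8% for RING1B. With the midpoint in the partner it was 58.7% for RING1A, 34.6% for RING1B and 41.9% for BMI1. With a partner within 1000 bp counted as shared it was 80.1% for RING1A, 65.7% for RING1B and 66.8% for BMI1. With peaks reaching the median control height it was 85.5% for RING1A, 78.2% for RING1B and 55.5% for BMI1. With height-0 peaks left out it was 33.4% for RING1B. With peaks within 1000 bp merged it was 61.0% for RING1A and 29.9% for RING1B.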

Other observations

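New peaks listed with a height of 0 lay on H3K27me3 peaks more often than the others. Of the 225 such RING1A peaks 64.0% (57.4 to 70.3) lay on a knockdown H3K27me3 peak, against 46.9% (44.2 to 49.6) of new RING1A peaks with a height above 0. For RING1B the shares were 79.7% (72.9 to 85.4) of 172 and 56.3% (51.6 to 60.9), and for BMI1 60.0% (53.8 to 66.0) of 260 and 37.4% (34.8 to 40.1). New RING1A peaks of height 0 also met knockdown RING1B at 38.2% and BMI1 at 73.3%, against 19.1% and 57.6% of those above 0. What a height of 0 stands for is not stated in the files. The median length of new RING1A peaks was 175 bp at height 0 and 125 bp above 0, and its part in these shares was not tested.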
